A study of Homo sapiens with 24 samples.

Results

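The 6 genes described here are 3 immediate early response genes, IER2, IER3 and IER5, and 3 mRNA decay factors of the ZFP36 family, ZFP36, ZFP36L1 and ZFP36L2. They were chosen by name among 18417 genes with a probe set of a single gene symbol, and each was read from the probe set with the highest mean over all 24 arrays. IER3 had 3 such probe sets, whose values were identical on every array, and the other members had 1 each. Affymetrix Human Gene 1.0 ST arrays measured total RNA of MCF10A cells, an established non-tumorigenic cell line of human breast epithelium. The cells had been transfected by means of Oligofectamine with an oligonucleotide against hsa-miR-20a (si-miR-20a), an oligonucleotide against hsa-miR-671-5p (si-miR-671) or a non-targeting oligonucleotide (control), and were then given EGF. RNA was collected at 0, 30, 60 and 120 min of EGF, with 2 arrays for each of the 12 groups. All groups shared the growth medium, which per the labels held 10 ng/ml EGF and 5% horse serum, with insulin, cholera toxin and hydrocortisone. The sources used here do not give the EGF dose of the stimulation, any starvation before it or the time between transfection and EGF. No group was followed over the same time without EGF. The labels call the replicates biological but name no separate cultures, so the p-values measure the spread between these arrays, which may be technical. The protocol also names hsa-miR-212, which no sample label carries, and it was not analysed here.

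EGF binds its receptor on epithelial cells and activates the ERK kinase cascade, which switches on immediate early genes without the need for new protein synthesis. IER genes belong to this first wave. ZFP36, also called tristetraprolin, and its relatives ZFP36L1 and ZFP36L2 are zinc finger proteins that bind AU-rich elements of mRNAs and recruit the CCR4-NOT deadenylase, so that the bound mRNA loses its poly(A) tail and is degraded. Many mRNAs of the first wave carry such elements, and ZFP36 itself is induced by growth factors.

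The authors deposited log2 values, and every level or difference below is on that log2 scale unless it is called a fold. Array medians lay between 6.56 and 6.57, and the correlation of 2 replicates over all probe sets lay between 0.97 and 0.99. A call is an adjusted p under 0.05 in limma, with Benjamini-Hochberg adjustment over 19460 probe sets. The si-miR-671 arrays stood further from control late in the series: 0.54% of probe sets were called at 0 min, 0.457% at 30 min, 8.18% at 60 min and 5.58% at 120 min. Averages over the transfections are therefore also given without si-miR-671 where that ended a call. Of 6 measured markers of basal breast epithelium, KRT5 (12.67), KRT14 (11.90), CDH3 (10.63), ITGB4 (10.49), EGFR (10.02) and CDH1 (9.50) all had mean levels above the array medians. Among 9 measured markers of blood, endothelium and fibroblasts, PTPRC averaged 4.28, PDGFRB 5.88, CD3E 5.91, VWF 6.08 and PECAM1 6.46, below the array medians. COL3A1 (6.66), COL1A1 (7.57), CD14 (8.04) and CDH5, an endothelial cadherin (10.25), averaged above them. At 120 min of EGF 2 of the 9 were called higher, VWF (0.48) and PECAM1 (0.28), and 1 lower, CD14 (-0.40). In RNA from a whole culture, fewer cells that express a gene and less RNA per cell cannot be told apart.

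Arrays of this kind do not report the mature miRNAs, so their levels under the oligonucleotides were not measured. Their sequences are shown because they define the transfections, with the seed (bases 2 to 8) in capitals, from RefSeq on GRCh38.p14. The mature hsa-miR-20a-5p lies at chr13:91351072-91351094 on the plus strand and hsa-miR-671-5p at chr7:151238449-151238471 on the plus strand. The seeds differ.
hsa-miR-20a-5p: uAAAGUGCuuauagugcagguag
hsa-miR-671-5p: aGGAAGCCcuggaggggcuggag

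All 6 members rose after EGF, on different time scales. Averaged over the transfections, IER2, IER3, ZFP36 and ZFP36L1 passed the test at 30 min, all higher than at 0 min, where 0.725% of all probe sets were called higher. At 60 min all 6 members were higher, against 2.16% of probe sets called higher, and at 120 min all 6 were again higher, against 7.13%. The median change of the members was 0.45, 0.63 and 0.59 at 30, 60 and 120 min, and the median over all 18417 genes lay between -0.01 and 0.01. IER2, IER3 and ZFP36 then came down: they were lower at 120 min than at 60 min, whereas IER5 and ZFP36L2 went on rising over the same hour, a step in which 2.3% of probe sets were called lower and 2.62% higher. These averages share their 0 min arrays, so the 3 times are not independent of each other.

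**Figure D1:**
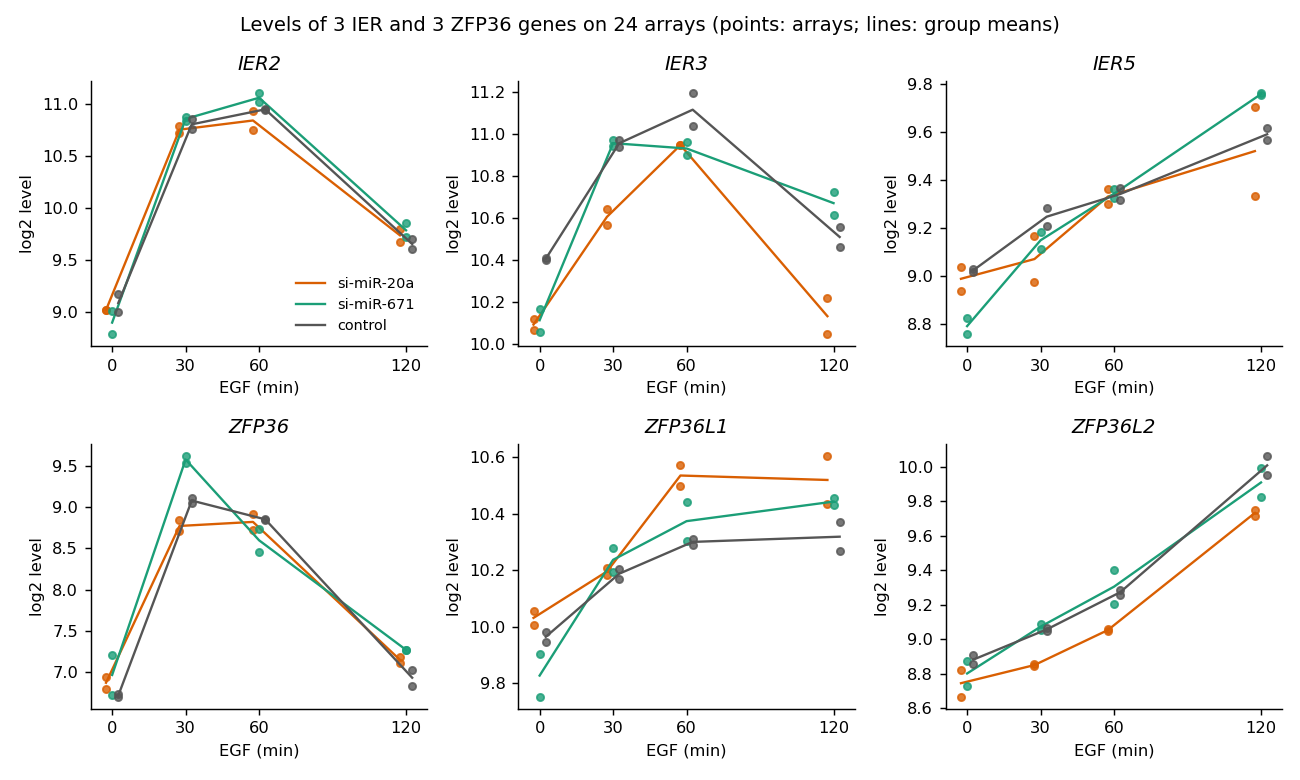
Level of each member (log2, vertical axis) against time of EGF in minutes (horizontal axis), with 1 panel per gene. Points are single arrays and lines join the means of 2 arrays for si-miR-20a, si-miR-671 and control. IER2, IER3 and ZFP36 stand highest at 30 and 60 min, while IER5 and ZFP36L2 stand highest at 120 min.

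IER2, a nuclear protein named for its rapid induction by growth factors, changed early and by a large amount. In si-miR-20a cells its replicates read 9.03 and 9.02 at 0 min, 10.79 and 10.72 at 30 min, 10.75 and 10.93 at 60 min, and 9.68 and 9.80 at 120 min. The si-miR-671 cells gave 8.79 and 9.01, then 10.84 and 10.88, then 11.02 and 11.11, and at last 9.86 and 9.72 at the same times. Control cells gave 9.01 and 9.17 at 0 min, 10.76 and 10.85 at 30 min, 10.96 and 10.94 at 60 min, and 9.70 and 9.61 at 120 min. Every array at 30, 60 or 120 min was above every array at 0 min, and the transfections lay close together at each time. How many of all probe sets separate in this way was not counted, here and for the other members. The mean change was 1.80 at 30 min, a 3.49-fold rise (SE 0.06, n = 6 arrays per time, limma adjusted p = 1.04e-11). It was 1.95 at 60 min, or 3.86-fold (SE 0.06, limma adjusted p = 2.85e-12), and 0.72 at 120 min, or 1.65-fold (SE 0.06, limma adjusted p = 3.05e-07). The levels at 60 and 30 min were not separated by the test (difference 0.14, 95% interval 0.03 to 0.26, limma adjusted p = 0.408). Between 60 and 120 min IER2 fell by 1.22 (SE 0.06, limma adjusted p = 3.29e-09). Ordered by rank of the change among 18417 genes, IER2 stood at place 13 of the increases at 30 min, 20 at 60 min and 185 at 120 min.

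IER3, a stress-inducible protein that acts on cell survival signalling, followed the same course with smaller changes. In si-miR-20a cells it read 10.12 and 10.06 at 0 min, 10.57 and 10.64 at 30 min, 10.95 and 10.95 at 60 min, and 10.22 and 10.05 at 120 min. In si-miR-671 cells the readings were 10.17 and 10.06, 10.94 and 10.97, 10.90 and 10.96, and 10.62 and 10.73. In control cells they were 10.41 and 10.40, 10.94 and 10.97, 11.20 and 11.04, and 10.56 and 10.46. All arrays at 30 and 60 min were above all arrays at 0 min, and those at 120 min overlapped them, since the si-miR-20a cultures were back near their starting reading. IER3 rose by 0.64 at 30 min, or 1.55-fold (SE 0.05, limma adjusted p = 6.86e-07), and by 0.80 at 60 min (SE 0.05, limma adjusted p = 2.40e-08). The average was still 0.23 above 0 min at 120 min (limma adjusted p = 0.00364), which rested on si-miR-671: over si-miR-20a and control alone it was 0.07 (limma adjusted p = 0.541). IER3 fell by 0.56 between 60 and 120 min (SE 0.05, limma adjusted p = 1.94e-06).

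IER5, a nuclear protein known to act with the phosphatase PP2A on the heat shock factor HSF1, climbed more slowly. The si-miR-20a arrays gave 9.04 and 8.94 at 0 min, 8.97 and 9.17 at 30 min, 9.36 and 9.30 at 60 min, and 9.71 and 9.34 at 120 min. The si-miR-671 arrays gave 8.76 and 8.83, 9.19 and 9.11, 9.32 and 9.36, and 9.76 and 9.76 at those times. The control arrays gave 9.02 and 9.03, 9.29 and 9.21, 9.32 and 9.37, and 9.57 and 9.62. At 30 min the arrays overlapped those at 0 min, and from 60 min on every array was above them. The 2 si-miR-20a arrays at 120 min were 0.37 apart, the widest gap of IER5. The change was 0.22 at 30 min (95% interval 0.09 to 0.35, limma adjusted p = 0.179), which did not pass. IER5 rose by 0.40 at 60 min (SE 0.06, limma adjusted p = 0.000652) and by 0.69 at 120 min, a 1.61-fold change (SE 0.06, limma adjusted p = 1.03e-06). The step between 60 and 120 min was 0.28 (limma adjusted p = 0.0095) and did not pass over si-miR-20a and control alone (0.22, limma adjusted p = 0.10).

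ZFP36, the founding member of the decay factor family, had the largest change of the 6. In si-miR-20a cells it read 6.94 and 6.80 at 0 min, 8.84 and 8.70 at 30 min, 8.92 and 8.72 at 60 min, and 7.12 and 7.18 at 120 min. In si-miR-671 cells it read 7.21 and 6.72, then 9.53 and 9.62, then 8.46 and 8.73, then 7.27 and 7.27. In control cells it read 6.70 and 6.73, then 9.11 and 9.05, then 8.85 and 8.85, then 6.84 and 7.03. The arrays at 30 and 60 min stood well above all arrays at 0 min, and those at 120 min overlapped them. The replicates of si-miR-671 at 0 min were 0.48 apart, the widest gap of any member in any group. ZFP36 rose by 2.29 at 30 min, or 4.88-fold (SE 0.08, limma adjusted p = 4.39e-11), place 10 among the increases of all genes. The rise was 1.90 at 60 min, or 3.74-fold (SE 0.08, limma adjusted p = 2.69e-10).

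ZFP36 then declined. It was the only member called between 60 and 30 min, a step in which 0.113% of probe sets were called lower, with a fall of 0.39 (SE 0.08, limma adjusted p = 0.0273). This call was lost in each fit that left out 1 array, with adjusted p between 0.0516 and 0.0983, except without si-miR-671 60 min replicate 2 or si-miR-20a 60 min replicate 1. Over si-miR-20a and control alone the step was -0.09 (limma adjusted p = 0.738), and within si-miR-671, where 0.236% of probe sets were called lower, ZFP36 fell by 0.98 (limma adjusted p = 0.00395, or 0.059 with a difference of -0.84 without si-miR-671 60 min replicate 1). Between 60 and 120 min ZFP36 fell by 1.64 over all transfections (SE 0.08, limma adjusted p = 5.18e-09), a fold of 0.322. At 120 min it was 0.27 above 0 min (limma adjusted p = 0.0362). This last call was lost over si-miR-20a and control alone (0.25, limma adjusted p = 0.132) and with all probe sets tested (limma adjusted p = 0.0569). It was also lost in 8 of 12 fits that left out 1 array, with adjusted p between 0.0629 and 0.0973, and was kept without si-miR-671 0 min replicate 1, si-miR-20a 0 min replicate 1, si-miR-20a 120 min replicate 1 or control 120 min replicate 1.

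ZFP36L1, which acts on AU-rich mRNAs like ZFP36, gained little and kept what it gained. The si-miR-20a cultures had 10.01 and 10.06 at 0 min, 10.18 and 10.21 at 30 min, 10.57 and 10.50 at 60 min, and 10.43 and 10.60 at 120 min. The si-miR-671 cultures had 9.90 and 9.75, 10.20 and 10.28, 10.30 and 10.44, and 10.45 and 10.43. The control cultures had 9.98 and 9.95, 10.21 and 10.17, 10.31 and 10.29, and 10.27 and 10.37. Every array after EGF was above every array at 0 min. ZFP36L1 rose by 0.27 at 30 min (SE 0.05, limma adjusted p = 0.00943), a call that did not hold over si-miR-20a and control alone (0.19, limma adjusted p = 0.454). It rose by 0.46 at 60 min (SE 0.05, limma adjusted p = 1.53e-05) and by 0.48 at 120 min, or 1.40-fold (SE 0.05, limma adjusted p = 3.90e-06). The levels at 120 and 60 min differed by 0.02 (95% interval -0.08 to 0.12, limma adjusted p = 0.854).

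ZFP36L2, the family member best known from blood cell development in mice, was the slowest to change. The si-miR-20a arrays read 8.82 and 8.67 at 0 min, 8.85 and 8.85 at 30 min, 9.06 and 9.05 at 60 min, and 9.71 and 9.75 at 120 min. Those of si-miR-671 read 8.87 and 8.73, 9.09 and 9.06, 9.21 and 9.40, and 9.83 and 10.00. Those of control read 8.91 and 8.85, 9.07 and 9.05, 9.26 and 9.29, and 10.07 and 9.95. The arrays at 30 min overlapped those at 0 min, the arrays at 60 min did not, and the arrays at 120 min stood apart from all others. The change was 0.18 at 30 min (95% interval 0.08 to 0.29, limma adjusted p = 0.209). ZFP36L2 rose by 0.40 at 60 min (SE 0.05, limma adjusted p = 0.000167) and by 1.08 at 120 min, or 2.11-fold (SE 0.05, limma adjusted p = 1.31e-09). The step between 60 and 120 min alone was 0.67 (SE 0.05, limma adjusted p = 6.75e-07). The family thus showed 3 courses: an early peak in ZFP36, a plateau in ZFP36L1 and a late rise in ZFP36L2.

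**Figure D2:**
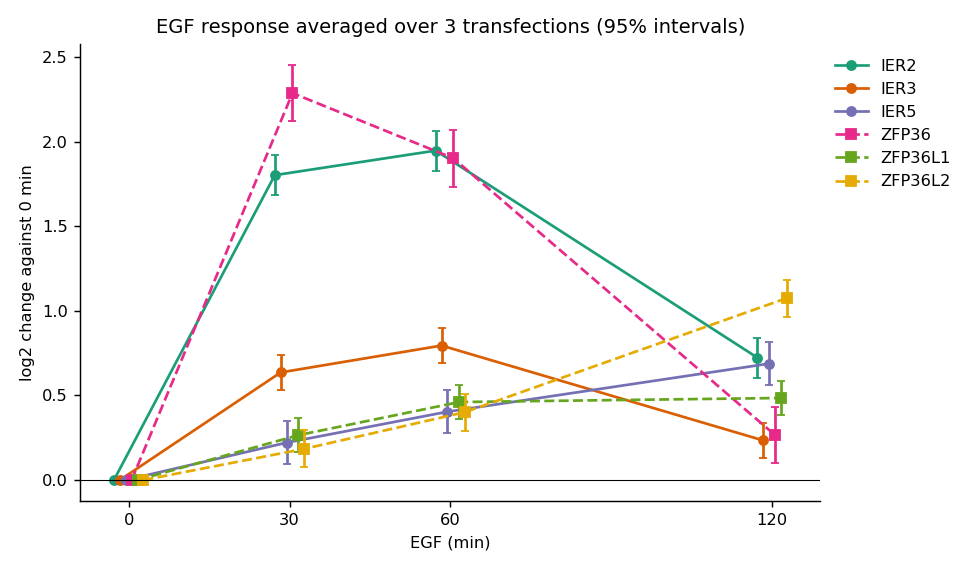
Change against 0 min averaged over the 3 transfections (log2, vertical axis) at 30, 60 and 120 min of EGF (horizontal axis) for each member, with 95% intervals of the limma model over 6 arrays per time. ZFP36 (2.29) and IER2 (1.80) lead at 30 min, and ZFP36L2 (1.08) leads at 120 min.

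The members were also tested within each transfection. In si-miR-20a cells 3, 4 and 4 members were called higher at 30, 60 and 120 min, against 0.365%, 0.889% and 4.49% of probe sets called higher. In si-miR-671 cells 4, 6 and 5 were called, against 0.56%, 1.28% and 3.22%. In control cells 3, 3 and 4 were called, against 0.329%, 0.755% and 2.17%. In all 3 transfections IER2, IER3 and ZFP36 were the members called at 30 min, joined by ZFP36L1 in si-miR-671 cells (0.41, limma adjusted p = 0.0317). ZFP36 rose by 1.90 in si-miR-20a cells, 2.61 in si-miR-671 cells and 2.36 in control cells at 30 min, and IER2 by 1.73, 1.96 and 1.72. At 120 min IER2, IER5, ZFP36L1 and ZFP36L2 were called in every transfection, and IER3 was called in si-miR-671 cells (0.56, limma adjusted p = 0.000622). The later course of IER3 was not called alike in the 3 transfections: between 60 and 120 min it fell by 0.82 in si-miR-20a cells (limma adjusted p = 3.96e-05), stood at -0.26 in si-miR-671 cells (limma adjusted p = 0.225) and fell by 0.61 in control cells (limma adjusted p = 0.000602), where 1.35%, 0.329% and 0.874% of probe sets were called lower. The difference between these steps did not pass, with limma adjusted p of 0.091 for si-miR-20a against si-miR-671 and 0.696 for si-miR-671 against control. Between 30 and 60 min ZFP36 stood at 0.05 in si-miR-20a cells (limma adjusted p = 0.915) and -0.23 in control cells (95% interval -0.52 to 0.06, not called in limma), beside its fall in si-miR-671 cells given above, and those steps differed between si-miR-20a and si-miR-671 by 1.03 (limma adjusted p = 0.102). With 2 arrays per group several of these calls were lost in fits that left out 1 array. IER3 at 30 min had adjusted p between 0.0501 and 0.162 in all 4 such fits in si-miR-20a cells and between 0.057 and 0.0641 in 3 of 4 in control cells, where it held without control 30 min replicate 1. The calls of ZFP36L1 at 30 min and IER5 at 60 min in si-miR-671 cells and of ZFP36L1 at 120 min in control cells were lost in all 4 such fits, with adjusted p between 0.0576 and 0.496, 0.0541 and 0.107, and 0.0647 and 0.191. ZFP36L2 at 60 min in si-miR-671 cells was lost without si-miR-671 0 min replicate 2 (0.43, adjusted p = 0.0968) or 60 min replicate 2 (0.41, adjusted p = 0.123). ZFP36L1 at 60 min in si-miR-20a cells was lost without si-miR-20a 60 min replicate 1 (0.46, adjusted p = 0.0746), and IER2 at 120 min in control cells without control 0 min replicate 1 (0.48, adjusted p = 0.0568). ZFP36 at 120 min in si-miR-671 cells passed without si-miR-671 0 min replicate 1 (0.55, adjusted p = 0.0384).

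The upstream sequences of the members are shown because the members share an EGF response but differ in its timing. RefSeq's promoter table for GRCh38.p14 held IER2, IER5, ZFP36 and ZFP36L1, and IER3 and ZFP36L2 were not matched. The 250 bases before the start site were searched on both strands for the CArG box bound by SRF, the ETS motif CCGGAAG, the cyclic AMP response element TGACGTCA, the AP-1 motif TGANTCA, the EGR motifs GCGTGGGCG and GCGGGGGCG, and TATAA. None of these motifs overlapped another in the windows printed here, where the capitals mark the match. IER2 (chr19:13150161-13150410, plus strand) held CTTCCGG, the reverse complement of CCGGAAG, at -27 to -21 relative to the start. IER5 (chr1:181088450-181088699, plus strand) held TATAA at -29 to -25 and ZFP36 (chr19:39406597-39406846, plus strand) held it at -30 to -26. The window of ZFP36L1 with a match (chr14:68793417-68793666, minus strand) held TGACGTCA at -52 to -45, and the window of its other listed start held no match.
IER2: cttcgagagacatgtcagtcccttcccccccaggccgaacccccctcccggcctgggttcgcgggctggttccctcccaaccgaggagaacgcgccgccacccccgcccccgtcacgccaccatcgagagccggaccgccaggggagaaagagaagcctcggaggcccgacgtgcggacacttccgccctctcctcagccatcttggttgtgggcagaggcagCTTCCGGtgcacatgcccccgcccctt
IER5: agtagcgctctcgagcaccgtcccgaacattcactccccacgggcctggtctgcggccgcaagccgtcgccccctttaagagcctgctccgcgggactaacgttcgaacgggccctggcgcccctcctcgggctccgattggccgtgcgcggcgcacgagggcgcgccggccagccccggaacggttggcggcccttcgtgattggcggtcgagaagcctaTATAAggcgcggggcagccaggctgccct
ZFP36: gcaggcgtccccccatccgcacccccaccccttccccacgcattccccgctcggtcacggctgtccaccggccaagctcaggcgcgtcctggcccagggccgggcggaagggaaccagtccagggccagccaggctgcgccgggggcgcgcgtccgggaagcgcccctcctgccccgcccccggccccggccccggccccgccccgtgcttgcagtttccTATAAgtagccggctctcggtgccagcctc
ZFP36L1: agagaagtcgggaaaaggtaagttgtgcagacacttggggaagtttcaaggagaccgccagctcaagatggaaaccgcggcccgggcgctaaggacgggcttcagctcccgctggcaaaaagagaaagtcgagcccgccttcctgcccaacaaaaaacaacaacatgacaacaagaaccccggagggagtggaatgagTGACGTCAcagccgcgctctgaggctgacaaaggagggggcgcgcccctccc

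These motifs are also found elsewhere. Among 35116 promoter windows of the same length, TATAA stood in 18.9%, CCGGAAG in 8.52%, TGANTCA in 6.57%, GCGGGGGCG in 4.72%, TGACGTCA in 1.65%, the CArG box in 1.16% and GCGTGGGCG in 0.72%. The GC content was 69.6% in IER2, 70.4% in IER5 and 76.4% in ZFP36, and 58.4% and 56.4% in the windows of ZFP36L1, beside a median of 58.0% over all windows. TATAA stood in a transiently induced gene, ZFP36, and in a slowly induced one, IER5. A match describes the letters of the window and no binding was measured.

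Under si-miR-20a, IER3 and ZFP36L2 were lower than in control when the 4 times were averaged. In all, 3 members were called in si-miR-20a against control, IER3 and ZFP36L2 lower, where 12.7% of all probe sets were called lower, and ZFP36L1 higher, where 11.9% were. IER3 was lower by 0.30 (difference -0.30, SE 0.04, n = 8 arrays a group, limma adjusted p = 7.15e-05), a fold of 0.811. Both si-miR-20a arrays were below both control arrays at 4 of 4 times. ZFP36L2 had a difference of -0.21 (SE 0.04, limma adjusted p = 0.00253), again with both si-miR-20a arrays below both control arrays at 4 of 4 times. The share of all probe sets with such a separation was not counted, so it adds no support to these calls. Both calls were the same under all 23 alternatives, with adjusted p up to 0.000992 for IER3 and up to 0.00799 for ZFP36L2. Among these alternatives, the mean over a gene's probe sets returned the same member values, since a member's probe sets were single or identical. Markers of the cells also differed between si-miR-20a and control: of the 6 basal markers CDH1 (0.46), KRT14 (0.26) and ITGB4 (0.25) were called higher and EGFR, the receptor of EGF (-0.24), and CDH3 (-0.11) lower, and of the 9 markers of other cell types PECAM1 was higher (0.27) and CD14 lower (-0.21). The mean level of the 6 basal markers on an array lay between 10.91 and 10.95 in si-miR-20a cells and between 10.77 and 10.95 in control cells. That of the 9 other markers lay between 6.63 and 7.04 in si-miR-20a cells and between 6.73 and 6.88 in control cells. The part of these differences in those of the members was not tested. The members stood among many: IER3 was at place 1283 of the decreases and ZFP36L2 at place 2417.

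ZFP36L1 was the member that was higher under si-miR-20a. Its difference was 0.13 (SE 0.04, limma adjusted p = 0.0332), with both arrays above both control arrays at 3 of 4 times and overlap at the other. For this separation too the share of all probe sets was not counted. This call was lost in 12 of 16 fits that left out 1 array, with adjusted p between 0.0524 and 0.0722, and held without si-miR-20a 0 min replicate 1, 60 min replicate 2 or 120 min replicate 1 or control 120 min replicate 2. IER2 (-0.04, 95% interval -0.14 to 0.07), IER5 (-0.07, -0.18 to 0.04) and ZFP36 (0.01, -0.14 to 0.15) did not pass, with limma adjusted p of 0.669, 0.352 and 0.951. Without si-miR-20a 120 min replicate 1, IER5 had a difference of -0.12 and passed (limma adjusted p = 0.0393).

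**Figure D3:**
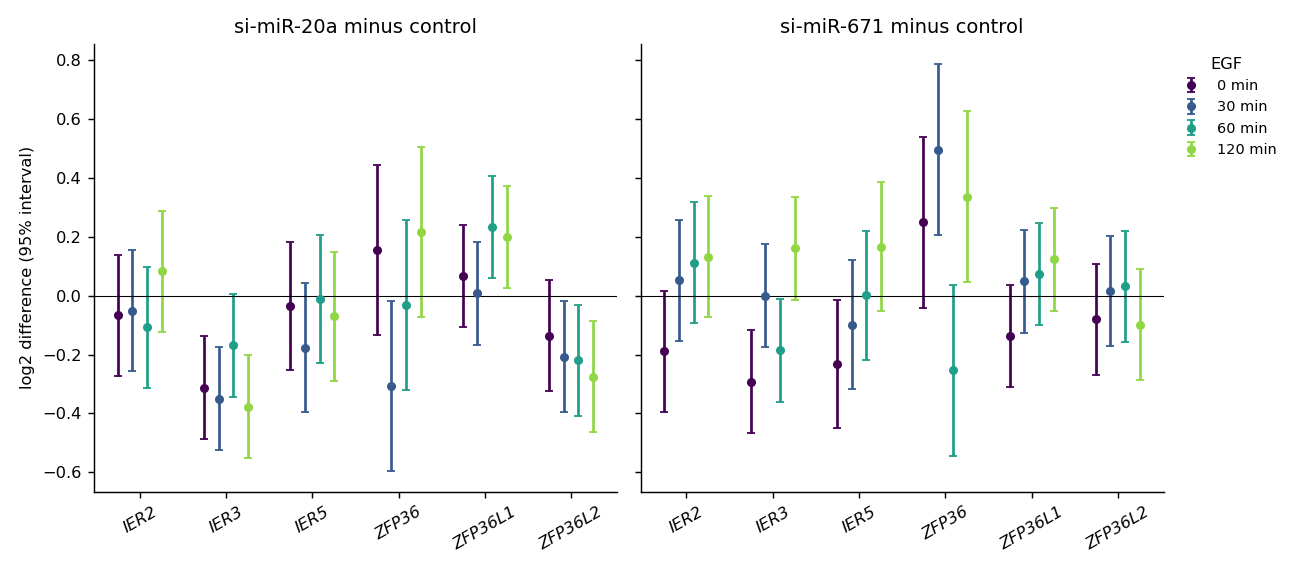
Difference from control at each of the 4 times (log2, vertical axis) for each member (horizontal axis), for si-miR-20a and si-miR-671. Points are coloured by time of EGF, with 95% intervals of the limma model and 2 arrays a group. Averaged over the 4 times (8 arrays a group, not drawn), IER3 (-0.30) and ZFP36L2 (-0.21) were below 0 under si-miR-20a. Of the 95% intervals of the si-miR-671 averages, all except that of ZFP36 reached 0.

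Of these differences, that of IER3 was called both early and late. Averaged over 0 and 30 min, IER3 was the only member called, with a difference of -0.33 (limma adjusted p = 0.00163), where 7.17% of probe sets were called lower, while ZFP36L2 stood at -0.17 (limma adjusted p = 0.0949) and ZFP36L1 at 0.04 (limma adjusted p = 0.774). Averaged over 60 and 120 min, 3 members were called, against 7.75% of probe sets lower and 8.95% higher: IER3 at -0.27 (limma adjusted p = 0.00454), ZFP36L1 at 0.22 (limma adjusted p = 0.0177) and ZFP36L2 at -0.25 (limma adjusted p = 0.0131). None of these late calls held when only the groups compared were fitted. Without control 120 min replicate 1 only IER3 was called late, with ZFP36L2 at -0.22 (limma adjusted p = 0.051) and ZFP36L1 at 0.19 (limma adjusted p = 0.0639). ZFP36L1 was also lost late without control 60 min replicate 2, si-miR-20a 60 min replicate 1 or si-miR-20a 120 min replicate 2, with adjusted p between 0.0596 and 0.0715. At single times IER3 was called at 30 min (-0.35, limma adjusted p = 0.0228), where 3.61% of probe sets were called lower, and at 120 min (-0.38, limma adjusted p = 0.0098), where 4.86% were. It stood at -0.31 at 0 min, before EGF (limma adjusted p = 0.0512), where 3.32% were called in either direction, and at -0.17 at 60 min (limma adjusted p = 0.284), where 6.19% were. ZFP36L2 passed at no single time, with differences of -0.14, -0.21, -0.22 and -0.28 at 0, 30, 60 and 120 min and limma adjusted p of 0.538, 0.227, 0.176 and 0.0621.

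No member was called in si-miR-671 against control, where 14.5% of probe sets were called over the 4 times (limma, 1 member at an unadjusted p under 0.05). ZFP36 came closest, with a difference of 0.21 (95% interval 0.06 to 0.35, limma adjusted p = 0.0551). Over 0 and 30 min it stood at 0.37 (95% interval 0.17 to 0.58, limma adjusted p = 0.0528), where 2.81% of probe sets were called, and over 60 and 120 min at 0.04 (-0.16 to 0.25), where 15.4% were called. At an unadjusted p under 0.05 there were 3 members early and 0 late. How many of all probe sets fall under that unadjusted threshold was not counted, here or below. For ZFP36, the si-miR-671 arrays were above both control arrays at 30 and 120 min, below them at 60 min, and overlapped them at 0 min. ZFP36 passed without si-miR-671 0 min replicate 2 (0.27, limma adjusted p = 0.00594), without si-miR-671 60 min replicate 1 (0.24, limma adjusted p = 0.0359) and without control 120 min replicate 2 (0.23, limma adjusted p = 0.0475). Leaving out si-miR-671 0 min replicate 2 also took the early difference past the threshold (0.49, limma adjusted p = 0.00904). Of the basal markers, CDH1 (0.21) and KRT14 (0.17) were called higher and EGFR (-0.21) and CDH3 (-0.17) lower in si-miR-671 than in control cells, and CD14 (-0.30) was the one of the 9 other markers called. The other members stood between -0.08 for IER3 (95% interval -0.17 to 0.01) and 0.03 for IER2 (-0.08 to 0.13) and for ZFP36L1 (-0.06 to 0.11). ZFP36L2, which was lower under si-miR-20a, stood at -0.03 under si-miR-671 (95% interval -0.13 to 0.06) and overlapped control at 4 of 4 times.

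Set directly against each other, the targeting oligonucleotides differed for IER3 and ZFP36L2. Averaged over times, IER3 was lower in si-miR-20a than in si-miR-671 cells by a difference of -0.22 (SE 0.04, limma adjusted p = 0.00676) and ZFP36L2 by -0.18 (SE 0.04, limma adjusted p = 0.0334), where 2.16% of probe sets were called lower. The call of ZFP36L2 was lost in 10 of 16 fits that left out 1 array, with adjusted p between 0.0582 and 0.0972. It held without si-miR-20a 0 min replicate 1, either si-miR-20a replicate at 120 min, si-miR-671 0 min replicate 2, 60 min replicate 1 or 120 min replicate 1. ZFP36 stood at -0.20 (95% interval -0.34 to -0.05, limma adjusted p = 0.121) and passed without si-miR-671 0 min replicate 2 (-0.26, limma adjusted p = 0.0251).

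By time, members were called between the targeting oligonucleotides at 30 and 120 min. At 30 min ZFP36 was lower in si-miR-20a cells (8.84 and 8.70) than in si-miR-671 cells (9.53 and 9.62), a difference of -0.80 (SE 0.14, limma adjusted p = 0.0125), and IER3 differed by -0.35 (limma adjusted p = 0.0487), where 1.13% of probe sets were called lower. Neither call was kept in any of the 4 fits that left out 1 array, with adjusted p between 0.0575 and 0.105 for ZFP36 and between 0.135 and 0.272 for IER3. With the replicate number as a block, IER3 at 30 min was no longer called (limma adjusted p = 0.053), while ZFP36 was. At 120 min IER3 read 10.22 and 10.05 in si-miR-20a cells against 10.62 and 10.73 in si-miR-671 cells, a difference of -0.54 (SE 0.08, limma adjusted p = 0.00637), where 1.03% were called lower. That call was lost without si-miR-20a 120 min replicate 2 (-0.45, limma adjusted p = 0.0741) or si-miR-671 120 min replicate 2 (-0.48, limma adjusted p = 0.0867). Without si-miR-20a 120 min replicate 1, IER5 was also lower at 120 min (-0.42, limma adjusted p = 0.0151, against 0.207 with all arrays).

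Whether the oligonucleotides altered the response to EGF itself was tested as a difference between responses. In 90 such tests, 15 for each of the 6 members, 0 passed after adjustment in limma and 19 had an unadjusted p under 0.05. The 15 tests of a member combine the same group means and are not independent of each other. The share of all probe sets under that unadjusted threshold was not counted. The 19 are therefore not read as altered responses. Few probe sets were called for a difference between responses at all. At 30 min 0% of them were called between any of the transfections. At 60 min it was 0% between si-miR-20a and control, 0.0462% between si-miR-671 and control and 0.0154% between si-miR-20a and si-miR-671, and at 120 min it was 0.036%, 0.0668% and 0.0925%. For the steps between neighbouring times the share lay between 0% and 0.0206%, with 0.0103% and 0.00514% among them. The lowest adjusted p of the members was that of the IER3 response at 120 min in si-miR-20a against si-miR-671 cells, a difference of -0.52 (95% interval -0.77 to -0.27, limma adjusted p = 0.0811). Its response was 0.04 in si-miR-20a cells, 0.56 in si-miR-671 cells and 0.10 in control cells. The response of ZFP36 at 30 min differed by -0.71 between si-miR-20a and si-miR-671 cells (95% interval -1.12 to -0.30, limma adjusted p = 0.917). Over the 3 times together, limma's moderated F called 0 of 6 members in each targeting oligonucleotide against control, beside 0.0154% of probe sets for si-miR-20a and 0.0514% for si-miR-671. For si-miR-671 the unadjusted p was 0.0071 for IER3 and 0.0087 for ZFP36, and the lowest adjusted p of the 12 F tests was 0.354.

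The 12 group means of the members were also correlated with each other. This restates the courses described above and is no separate test of them. Across group means, which share arrays from the same transfections and times, IER2 had r = 0.93 with ZFP36 and 0.89 with IER3, and IER5 had 0.93 with ZFP36L2 and 0.84 with ZFP36L1. ZFP36L1 also had r = 0.67 with ZFP36L2 and 0.56 with IER2. ZFP36 and ZFP36L2, members of a single family, had r = -0.22. Among 1645 genes whose group means spanned at least 1, the means of IER2 were most like those of EGR1 (r = 0.99), ATF3 (0.98) and JUN (0.97), all early growth factor or stress induced transcription factors. IER3 was most like JUNB (0.97), an AP-1 subunit, and BHLHE40 (0.94). The means of ZFP36 were most like those of FOS (0.98), an AP-1 subunit, and DUSP1 (0.98), a phosphatase that inactivates MAP kinases. Those of IER5 ran most closely with MIDN (0.97) and NOCT (0.96), those of ZFP36L1 with MXD1 (0.96) and INHBA (0.95), and those of ZFP36L2 with GJB2 (0.97), a gap junction protein, and SOX9 (0.97), a transcription factor. These coefficients describe 12 means of 2 arrays each.

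The mRNAs of other decay pathway proteins were counted in the same way, beside the shares of all probe sets called higher (0.725%, 2.16% and 7.13% at 30, 60 and 120 min) and lower (0.0411%, 0.493% and 6.27%). Of the genes of 10 other mRNA-binding proteins, 0 were called at 30 min, 1 was higher at 60 min and 3 were lower at 120 min. The ribonuclease ZC3H12A accounted for the largest of these, with 0.25 at 60 min (limma adjusted p = 0.0188) and -0.77 at 120 min (limma adjusted p = 1.28e-07). Of 17 measured deadenylation genes of 18 listed, 0 were called at 30 min, 1 was higher at 60 min (TOB1, 0.21), and 1 was higher (TOB2, 0.39) and 1 lower at 120 min. Of 9 decapping and exonuclease genes, 0, 0 and 2 were called, and DCP2, the decapping enzyme, was the lower one at 120 min (-0.34). Of 13 genes of the RNA exosome and its helper complex, 0, 0 and 2 were called, and of 9 measured kinases and partners that act on ZFP36 proteins 0 were called in limma at the 3 times. At an unadjusted p under 0.05 the numbers at 30, 60 and 120 min were 2, 4 and 6 for the other mRNA-binding proteins, 1, 4 and 4 for deadenylation, 0, 2 and 3 for decapping, 1, 1 and 4 for the exosome and 0, 1 and 2 for the kinases and partners. These unadjusted numbers have no share of all probe sets beside them and are not read as a result about the lists. The gene of SRF, the factor that binds CArG boxes, was higher at 60 min (0.40, limma adjusted p = 0.000458) and at 120 min (0.50, limma adjusted p = 1.88e-05), the only one called of the 5 measured genes in the list of SRF, its coactivators and ternary complex factors. At an unadjusted p under 0.05 in limma there were 1, 2 and 5 of these 5 genes at 30, 60 and 120 min. The share of all probe sets under that threshold was not counted, and at 120 min 13.4% of them were called even after adjustment. The median change of these 5 genes at 120 min was 0.17, against 0.01 over all genes.

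The same genes were compared between each targeting oligonucleotide and control, where 11.9% of probe sets were called higher and 12.7% lower in si-miR-20a, and 6.79% higher and 7.7% lower in si-miR-671. ZC3H12A stood at -0.77 in si-miR-20a cells and at -0.52 in si-miR-671 cells against control, DCP2 at -0.68 and -0.43, and the poly(A) ribonuclease PARN at 0.42 and 0.31, all called. Of the deadenylation genes, 2 were higher and 5 lower in si-miR-20a, and 2 were higher and 2 lower in si-miR-671. Of the RNA exosome genes, 5 were higher and 2 lower in si-miR-20a, and 6 were higher and 0 lower in si-miR-671. Of the other mRNA-binding proteins, 2 were higher and 3 lower in si-miR-20a, and 1 higher and 1 lower in si-miR-671. For decapping the numbers were 1 higher and 3 lower, then 0 higher and 2 lower. For the kinases and partners they were 1 higher and 1 lower, then 2 higher and 0 lower. Of the SRF list only ELK3 was called, lower in si-miR-671 (-0.25). YWHAB, a 14-3-3 protein that binds phosphorylated ZFP36, was higher by 0.46 in si-miR-20a and 0.53 in si-miR-671 cells. IER5L and IER3IP1, a relative of IER5 and a gene named for its link to IER3, were not called in limma at 30, 60 or 120 min or under either oligonucleotide, and at an unadjusted p under 0.05 there was 1 of the 2 at 120 min and 0 elsewhere. The 2 oligonucleotides share the control arrays in these comparisons.

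The mRNAs that ZFP36 proteins are reported to bind or destabilise moved more, in both directions. The list of 26 genes was drawn from general knowledge, with earlier results of these data known, and 22 were measured. Its counts describe the listed genes and are no independent test of ZFP36 targets. At 30 min of EGF 8 were higher and 0 lower, at 60 min 10 were higher and 1 lower, and at 120 min 9 were higher and 7 lower. Of all probe sets, 0.725% were called higher at 30 min, 2.16% at 60 min and 7.13% at 120 min. The shares called lower were 0.0411%, 0.493% and 6.27%. Their median change was 0.15, 0.24 and 0.11 at these times, against medians of -0.01, 0.00 and 0.01 over all genes. FOS rose by 3.98 at 30 min and 3.14 at 60 min, PTGS2, the inducible cyclooxygenase, by 2.83, 3.85 and 2.61 at the 3 times, and LIF, a cytokine, by 1.63, 2.71 and 2.41. IL6 rose by 0.88 at 30 min and the kinase gene PIM1 by 1.08 at 60 min, while the chemokine CXCL2 fell by 1.25 at 120 min.

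**Figure D4:**
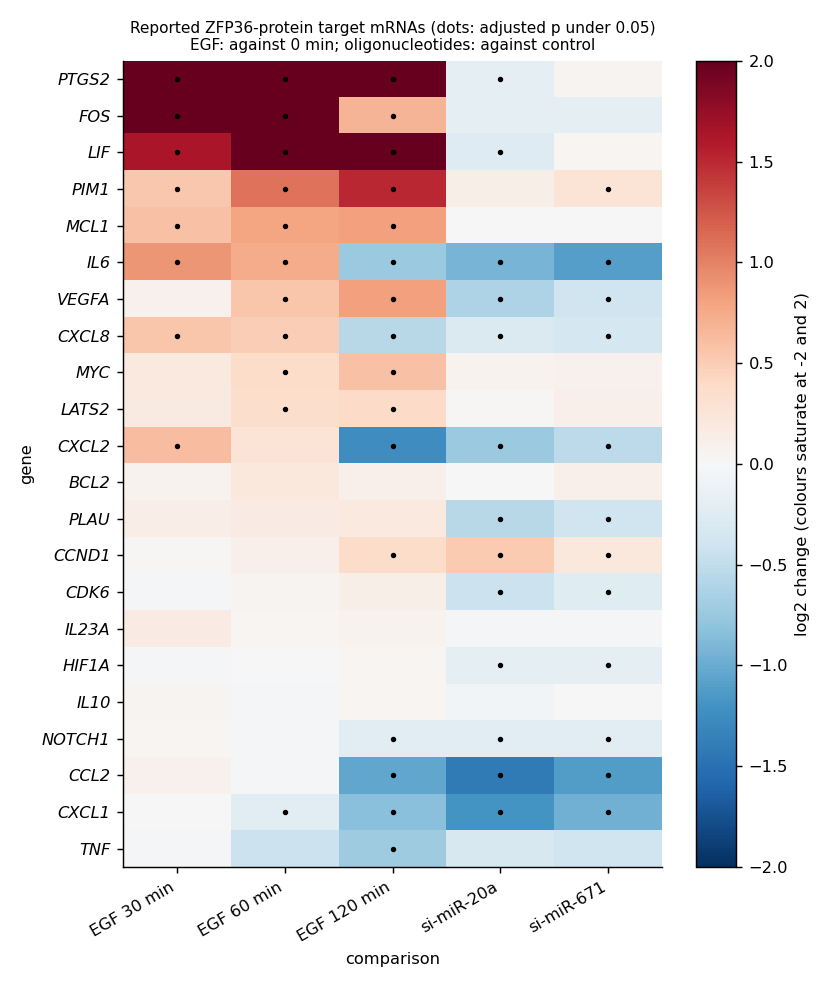
Change of each of the 22 measured mRNAs reported as bound or destabilised by ZFP36 proteins (rows), as log2 differences by colour, at 30, 60 and 120 min of EGF against 0 min and in si-miR-20a and si-miR-671 against control (columns). FOS, PTGS2 and LIF have the largest increases, and CCL2 and CXCL1 the largest decreases under the targeting oligonucleotides.

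Against control, ZFP36L1 was called higher (0.13) and ZFP36L2 lower (-0.21) in si-miR-20a cells, and ZFP36 was not called. In si-miR-671 cells no ZFP36 gene was called. In both transfections the list of reported target mRNAs leaned downward. In si-miR-20a against control 1 was higher and 12 were lower, against 11.9% of probe sets called higher and 12.7% called lower, with a median difference of -0.21 against 0.01 over all genes. In si-miR-671 against control 2 were higher and 10 lower, against 6.79% of probe sets called higher and 7.7% called lower, with a median of -0.19 against 0.00. The chemokines and the cytokine with the largest differences were CCL2 (-1.41 in si-miR-20a and -1.11 in si-miR-671), CXCL1 (-1.20 and -0.96), IL6 (-0.93 and -1.10) and CXCL2 (-0.75 and -0.53). Both comparisons use the same control arrays and are not independent. Levels of ZFP36, ZFP36L1 and ZFP36L2 protein were not measured, and the part of the members in these differences was not tested.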

How the data were processed

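The authors deposited log2 values, 1 per probe set (Affymetrix transcript cluster) and array. Per the submitters' processing notes they used Affymetrix Expression Console. The summarisation, background correction and normalization were not stated, so their effect on small changes is unknown. The table held 33297 probe sets without missing values, array maxima lay between 13.0 and 13.2, and the values were used as deposited.

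Probe sets were named from the platform annotation. Of these, 19460 had 1 gene symbol (18417 genes) and were tested, 1754 had several and 12083 were not listed. The members, the gene lists and the tests were chosen with earlier results of these data known. From each list, up to 4 called genes with the largest change were named, and for each member the genes with the most similar group means.

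limma 3.58.1 (R 4.3.3) was fitted to the 24 arrays together, each group having its own mean and without a block, with 12 residual and 2.57 prior degrees of freedom, followed by contrasts, eBayes and Benjamini-Hochberg adjustment. Exact permutation of 2 against 2 arrays cannot go below p = 0.333. The fit was tested on simulated data. Alternatives were a replicate block, leaving out each array, a fit of the compared groups alone, a filter on the mean, quantile normalization, all probe sets, an intensity trend, averages without si-miR-671, and a mean over a gene's probe sets. The replicate numbers were not used as pairs in the main fit. Among 66 pairs of groups the correlation of replicate differences ran from -0.50 to 0.46. Its median was 0.049, with 27 pairs above 0.1. Whether arrays of some groups shared a batch was not tested.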

Additional observations from a re-analysis of the deposited data

How the results depend on the processing

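No call of a member changed direction under any alternative. The replicate block, the fit of the compared groups alone, the mean filter, all probe sets and the intensity trend leave the estimated differences unchanged. These settings could therefore not change a direction. With the replicate number as a block, 173 of 174 member values kept their call. The 1 call lost was IER3 at 30 min in si-miR-20a against si-miR-671 (limma adjusted p = 0.053). Quantile normalization lost the same call (limma adjusted p = 0.052), testing all probe sets lost 6 and fitting the compared groups alone lost 56. The mean over a gene's probe sets lost 0, but it returned the same member values, since a member's probe sets were single or identical. It could only move the adjustment and the shared estimate of spread. The mean filter gained 4 calls and the intensity trend gained 7. Another 81 member values were called under no setting, and 19 of them changed sign when 1 array was left out. The cause of these shifts was not tested, apart from the fewer arrays in the smaller fits.

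Fitted on the compared groups alone, the members called at 30, 60 and 120 min were 0, 0 and 0 in si-miR-20a and 0, 1 and 0 in si-miR-671, with 1 at 30 min and 0 at 120 min in control, 0 for si-miR-20a against control late and 1 for si-miR-20a against si-miR-671. In that fit the averaged calls of ZFP36L1 at 30 min (adjusted p = 0.0526), IER3 at 120 min (0.0555), ZFP36 at 120 min (0.123) and IER5 between 60 and 120 min (0.0937) were also lost, as was ZFP36L1 in si-miR-20a against control (0.0585). Testing all probe sets left 1 member for si-miR-20a against si-miR-671. Between 30 and 60 min, 2 members were called with the mean filter, 3 with the intensity trend and 0 without si-miR-671. The trend called 5 members at 60 min in control. In si-miR-671 against control, both the filter and the trend called 1 member over all times and 1 over 0 and 30 min.

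Leaving out 1 array gave 0 to 1 member between 30 and 60 min, 2 to 3 at 120 min in control, 1 to 3 for si-miR-20a against control late, 0 to 1 for si-miR-671 against control over all times and 0 to 1 early, and 1 to 3 for si-miR-20a against si-miR-671. Counts over all probe sets moved more than 1.5 times in 21 of 29 comparisons fitted alone. With 2 arrays per group, small differences such as that of ZFP36L1 under si-miR-20a rest on few degrees of freedom, and the miRNA levels, proteins and mRNA half-lives were not measured.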
